A study of Mus musculus with 4 samples.

Results

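The nuclear genes of the mitochondrial respiratory chain, complexes I to V, were read in 4 mouse cerebellar tumors titled Chd7-het and numbered 1, 2, 4 and 5. Members were chosen by gene symbol from probe sets that carry exactly 1 symbol: names starting with Ndufa, Ndufb, Ndufc, Ndufs, Ndufv, Uqcr, Atp5 or Cox followed by a digit of 4 to 8, and Sdha, Sdhb, Sdhc, Sdhd and Cyc1. The rule found 163 probe sets of 86 genes, out of 13320 genes with a probe set of their own in a table of 29304 probe sets. It also takes in the Ndufaf genes, which encode assembly factors of complex I and no subunit, so these are described apart. By complex, the 86 genes are 34 of complex I, 4 of complex II, 9 of complex III, 14 of complex IV and 17 of complex V, with 8 assembly factors. Ndufa4, named for complex I, was counted with complex IV, where the protein is now placed.

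All 4 tumors carry the same genotype label, Chd7-het, on a mixed CD1xC57BL/6 background, with 1 Affymetrix Mouse Genome 430 2.0 array each. Chd7 encodes a chromatin remodeler. The labels name no treatment, age, sex, driver allele or animal for any tumor, and neither normal cerebellum nor a tumor with a different genotype is among the samples used. Each tumor was therefore set against the other 3, and p-values measure only the spread between these tumors. Markers of granule cell progenitors, from which many cerebellar tumors of mice arise, were read in all 4 tumors: 8 of 8 listed markers passed the filter described below, and 7 of the 8 were lowest in tumor 1.

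Complexes I to IV pass electrons from NADH and succinate to oxygen. Complexes I, III and IV pump protons across the inner mitochondrial membrane as they do so, and complex V uses the proton gradient to make ATP. Complex II is built wholly from nuclear genes, while the other 4 complexes join nuclear subunits with subunits encoded in mitochondrial DNA, which are not analysed here. Nuclear respiratory chain genes sit on many chromosomes (19 among the members tested) and are known to share promoter elements for the factors NRF1, GABPA and YY1.

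The stretch before the start site is shown for 4 members, picked as examples of the different orders of the tumors described below. Cox6a1 and Uqcrh were lowest in tumor 2, Sdha moved little, and Atp5md ran in the opposite order. Each line gives the 250 bases before the annotated start, 5′ to 3′ on the gene's own strand, from RefSeq on build GRCm38.p6. Cox6a1 is at chr5:115348959-115349208, Uqcrh at chr4:116075071-116075320, Sdha at chr13:74350241-74350490 and Atp5md at chr19:47090648-47090897, all on the minus strand. Capitals mark a match to the NRF1 or GABPA motif on either strand.
Cox6a1: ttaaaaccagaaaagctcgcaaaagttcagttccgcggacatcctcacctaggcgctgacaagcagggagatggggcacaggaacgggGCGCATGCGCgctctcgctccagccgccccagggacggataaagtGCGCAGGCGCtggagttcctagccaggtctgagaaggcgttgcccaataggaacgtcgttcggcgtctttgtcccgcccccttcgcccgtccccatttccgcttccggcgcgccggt
Uqcrh: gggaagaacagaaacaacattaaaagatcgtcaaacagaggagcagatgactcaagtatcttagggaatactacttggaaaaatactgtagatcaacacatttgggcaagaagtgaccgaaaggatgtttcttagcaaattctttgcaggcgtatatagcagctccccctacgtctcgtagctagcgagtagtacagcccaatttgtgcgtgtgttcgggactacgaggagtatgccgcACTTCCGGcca
Sdha: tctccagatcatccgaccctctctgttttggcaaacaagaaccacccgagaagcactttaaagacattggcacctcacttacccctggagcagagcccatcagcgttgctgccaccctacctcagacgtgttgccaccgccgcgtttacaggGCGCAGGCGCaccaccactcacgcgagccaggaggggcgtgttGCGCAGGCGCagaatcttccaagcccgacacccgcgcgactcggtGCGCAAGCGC
Atp5md: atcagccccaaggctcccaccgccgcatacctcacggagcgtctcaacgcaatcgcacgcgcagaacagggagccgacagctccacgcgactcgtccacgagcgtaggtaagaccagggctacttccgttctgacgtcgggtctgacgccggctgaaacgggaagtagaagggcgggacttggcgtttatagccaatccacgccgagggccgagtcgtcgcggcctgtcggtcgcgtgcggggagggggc

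The Cox6a1 stretch holds the NRF1 motif at 2 places, Sdha holds it at 3 places, Uqcrh holds the GABPA motif at 1 place, and the Atp5md stretch holds none of these letters. The motifs were searched on both strands of a window reaching 50 bases past the start: NRF1 as GCGCA, any base and then GCGC, GABPA as CCGGAAGT, YY1 as AAGATGGC and SP1 as GGGCGGGG. Matches to different motifs could overlap. A window was available for 68 of the 81 members tested on the arrays. The NRF1 motif was present in 16 of the 68 (23.5%), against 13.5% of 6994 tested genes and 5.19% of all 27025 genes with a window. The YY1 motif was in 10 members (14.7%), against 6.16% of tested genes and 3.19% of all genes. The GABPA motif was in 5 members (7.35%), against 10.4% and 4.31%, and the SP1 motif was in 14 members (20.6%), against 39.4% and 19.6%. At least 1 of the NRF1, GABPA and YY1 motifs was in 30 members (44.1%), against 27.3% of tested genes and 11.7% of all genes. By complex, those 30 were 11 of 29 genes of complex I, 2 of 3 of complex II, 3 of 5 of complex III, 2 of 9 of complex IV, 9 of 15 of complex V and 3 of 7 assembly factors. A motif match is a run of letters and not evidence of binding. The 4 stretches shown do not stand for all members with the same order. Atp5l, Uqcr10 and Ndufa4, lowest in tumor 2, had none of the NRF1, GABPA and YY1 motifs. Cox8a, Atp5c1 and Ndufs7, also lowest there, had at least 1 of them. A link between motifs and the order of the tumors was not tested.

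Probe sets of respiratory chain genes were among the brighter ones of these arrays. A gene was tested if its best probe set had a mean log2 signal at or above the middle of all probe sets (5.88), with signals under a floor of 5.12 raised to it. Of the 86 genes, 81 passed, all of them above the floor in all 4 tumors. The median member had a signal of 10.11, and 68 of 81 members were at 9 or above, against 1834 of 8492 genes tested. Probe sets differ in how well they bind, so levels of different genes are not compared.

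5 genes stayed under the filter. Ndufb1, an accessory subunit of complex I, read 5.25, 4.88, 5.50 and 5.65 in tumors 1, 2, 4 and 5, below the floor in tumor 2 and above it in the others. Ndufb4 was under the floor in all 4 tumors by the probe set that carries its symbol alone, at 2.17 to 3.10. Cox6b2, the testis form of a complex IV subunit, read 4.03 to 4.80, Cox7a1, the heart and muscle form of another, 3.41 to 4.43, and Cox7b2 2.49 to 3.70, all under the floor in every tumor.

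The 81 members were close between tumors. The SD over the 4 tumors had a median of 0.17 on the log2 scale, the same as that of all genes tested (0.17), and 0.15 for the 1834 genes at 9 or above. By complex the median SD was 0.16 for complex I, 0.09 for complex II, 0.15 for complex III, 0.23 for complex IV, 0.19 for complex V and 0.16 for the assembly factors. The lowest SD was 0.04 in Atp5b and the highest 0.47 in Atp5md. Within this narrow range tumor 2 had the lowest median level, relative to each gene's mean, in every group. The order of tumors 1, 4 and 5 differed between groups.

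No member passed the test in any of the 4 contrasts (limma on all 8492 genes, Benjamini-Hochberg adjusted p under 0.05 and a change of at least 2-fold). Over all genes, 1.25% passed in tumor 1, 0.0% in tumor 2, 0.0% in tumor 4 and 0.0118% in tumor 5. The smallest adjusted p among members was 0.526 in tumor 1, 0.795 in tumor 2, 1.00 in tumor 4 and 0.957 in tumor 5. At an unadjusted limma p under 0.05 there were 0 members in tumor 1 against 11.2% of all genes, 8 in tumor 2 against 5.78%, 0 in tumor 4 against 0.565% and 1 in tumor 5 against 3.52%. The 8 in tumor 2 are 9.88% of the members, so that share is above its background, and the genes are Ndufs7, Ndufa13, Uqcr10, Cox4i1, Cox8a, Atp5c1, Atp5l and Ndufaf3, each lower in tumor 2. The members share the same 4 arrays and are not independent, and the excess of that share over its background was not tested. What follows describes small differences that no call supports gene by gene.

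Tumor 2 gave the lowest signal of most members. In it, 76 of 81 members were lower than the mean of the other 3, against 52.8% of all genes tested, and the median difference was -0.24 over the members and -0.02 over all genes. For 68 of the 81 members, tumor 2 was the lowest of the 4, against 29.2% of all genes. In tumor 4, 71 members were higher than the mean of the others, against 50.8% of all genes, with a median difference of 0.17. In tumor 5, 64 members were higher, against 56.9%, with a median of 0.13. In tumor 1, 24 members were higher, against 43.7%, with a median of -0.05. Tumor 4 held the highest value in 37 members, against 19.1% of all genes, and tumor 5 in 36 members, against 30.9%. Most members are bright, so the genes at a signal of 9 or above are a closer background. Of those 1834 genes, 69.1% were lower in tumor 1, 63.8% in tumor 2, 27.8% in tumor 4 and 34.2% in tumor 5. The members' shares were 70.4%, 93.8%, 12.3% and 21.0%. Tumor 2 was the lowest in 37.5% of the bright genes, and tumor 4 or 5 the highest in 65.9%, against 90.1% of members. The members share the same 4 arrays, so these counts are not independent observations. In bulk tissue, fewer cells with a high content of mitochondria and less RNA per cell cannot be told apart.

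**Figure D1:**
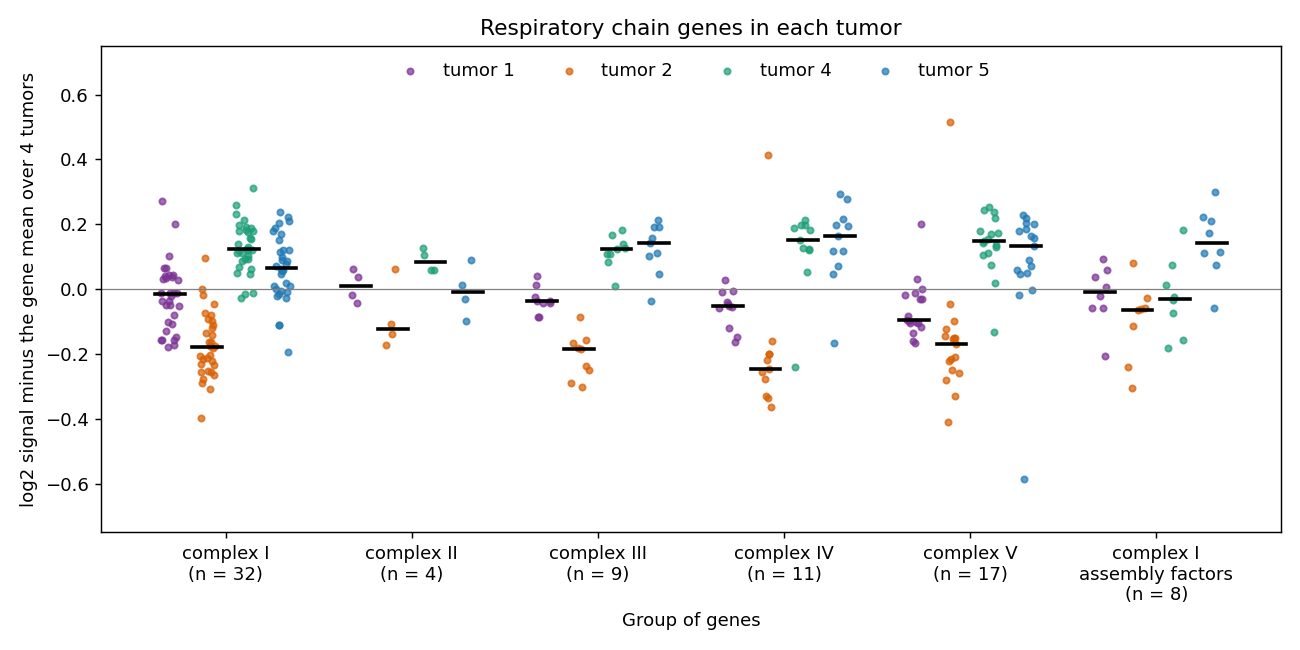
Log2 signal of each member in each tumor minus that gene's mean over the 4 tumors, by complex. Points are genes, colours are tumors and black bars are medians over the genes of a complex. The tumor 2 medians lie below 0 in all 6 groups, from -0.25 in complex IV to -0.06 in the assembly factors, and the tumor 4 medians lie above 0 in complexes I to V.

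In complex I, NADH dehydrogenase, 31 of the 32 genes tested were lower in tumor 2 than in the mean of the others, with a median difference of -0.24. The median difference was 0.16 in tumor 4, with 29 of 32 higher, 0.09 in tumor 5, with 23 higher, and -0.02 in tumor 1, with 12 higher. The 6 core subunits tested, the conserved catalytic part of the complex, had a median of -0.15 in tumor 2, against -0.26 for the 26 accessory subunits, which surround the core. Their medians in tumor 4 were alike, at 0.16 in both sets.

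Among core subunits, Ndufs7 carries an iron-sulfur cluster near the ubiquinone site. It read 8.92 in tumor 2, against 9.52, 9.43 and 9.40 in tumors 1, 4 and 5, a difference of -0.53 (SE 0.14), or 1.44-fold lower (limma, adjusted p = 0.795). On this probe set tumor 2 was the lowest. A second Ndufs7 probe set read 8.94 in tumor 2, against 9.11, 9.26 and 9.43 in tumors 1, 4 and 5. Ndufs8, another iron-sulfur core subunit, read 9.94 in tumor 2, against 10.04, 10.39 and 10.42 in tumors 1, 4 and 5. Ndufs3, a core subunit of the peripheral arm, read 9.50 in tumor 2, against 9.58, 9.69 and 9.61 in the others. Ndufs1, the large iron-sulfur core subunit, was nearly flat at 8.88, 8.80, 8.80 and 8.79 in tumors 1, 2, 4 and 5.

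Among accessory subunits, Ndufa13 read 10.07 in tumor 2, against 10.36, 10.52 and 10.57 in tumors 1, 4 and 5, or -0.41 (SE 0.16, limma, adjusted p = 0.795). Ndufa6, a member of the LYR protein family that binds the acyl carrier protein Ndufab1, read 8.93 in tumor 2, against 9.28, 9.21 and 9.46. In both genes tumor 2 was lowest, and the order of the other 3 differed. Ndufa2 set tumor 4 apart, with 10.87 in tumor 4, against 10.41, 10.35 and 10.63 in tumors 1, 2 and 5, a difference of 0.41 (SE 0.20, limma, adjusted p = 1.00). Ndufv3, an accessory subunit of the NADH-binding module, was highest in tumor 1, with 9.29 in tumor 1, against 8.77, 9.11 and 8.91 in tumors 2, 4 and 5. Its difference of 0.36 (SE 0.18) in tumor 1 was the largest of any member in that tumor and did not pass (limma, adjusted p = 0.526). Ndufb6, an accessory subunit of the membrane arm, was the complex I gene that was higher in tumor 2, by 0.13, with 10.13 in tumor 2, against 10.08, 10.01 and 9.92 in the others. A second Ndufb6 probe set had tumor 2 lowest, at 9.38, against 9.39, 9.59 and 9.42 in tumors 1, 4 and 5, a difference of -0.08.

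Complex II, succinate dehydrogenase, had the lowest median SD of the 6 groups, 0.09, or 0.14 with the mean of all probe sets of a gene. Sdha, the flavoprotein that oxidizes succinate, read 9.75 in tumor 2, against 9.67, 9.75 and 9.59 in tumors 1, 4 and 5, a difference of 0.08 (SE 0.15). Sdhb, the iron-sulfur subunit, read 9.70 in tumor 2, against 9.83, 10.002 and 9.96, a difference of -0.23 (SE 0.15). The membrane anchors Sdhc and Sdhd differed by -0.19 and -0.15, with 9.18 and 8.71 in tumor 2. Tumor 2 was lowest in Sdhb, Sdhc and Sdhd and highest in Sdha, where it lay 0.004 above tumor 4. The 4 genes had median differences of 0.01 in tumor 1, -0.17 in tumor 2, 0.11 in tumor 4 and -0.01 in tumor 5. With the mean of all probe sets of a gene, the tumor 4 value was -0.019.

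In complex III, which passes electrons to cytochrome c, all 9 genes tested were lowest in tumor 2 and highest in tumor 4 or tumor 5. The median difference was -0.25 in tumor 2, 0.16 in tumor 4, 0.19 in tumor 5 and -0.05 in tumor 1. Uqcr10, a small accessory subunit, read 8.31 in tumor 2, against 8.58, 8.79 and 8.77 in tumors 1, 4 and 5, or -0.40 (SE 0.16, limma, adjusted p = 0.795). Uqcrh, the hinge protein at cytochrome c1, read 10.41 in tumor 2, against 10.66, 10.84 and 10.89. Uqcrb, which lies near the ubiquinone site, read 10.98 in tumor 2, against 11.14, 11.35 and 11.44, and Uqcr11 read 9.60, against 9.85, 9.97 and 9.94. In each of the 4 genes tumor 1 lay between tumor 2 and the other tumors. The flattest genes kept tumor 2 at the bottom by less: Uqcrc2, a core protein without a redox center, read 10.01 in tumor 2, against 10.13, 10.18 and 10.06, and Cyc1, cytochrome c1 itself, read 10.001, against 10.15, 10.29 and 10.30.

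Complex IV, cytochrome c oxidase, had the highest median SD of the 6 groups, 0.23, or 0.11 after quantile normalization. Its median difference was -0.33 in tumor 2, 0.20 in tumor 4, 0.22 in tumor 5 and -0.07 in tumor 1. Of 11 genes tested, 10 were lowest in tumor 2. Cox8a read 9.86 in tumor 2, against 10.16, 10.34 and 10.51 in tumors 1, 4 and 5, or -0.48 (SE 0.18, limma, adjusted p = 0.795). Cox4i1, the regulatory subunit that binds ATP, read 10.93 in tumor 2, against 11.22, 11.45 and 11.46, or -0.45 (SE 0.18). Cox6a1, which also binds nucleotides, read 11.23 in tumor 2, against 11.39, 11.77 and 11.83, or -0.44 (SE 0.23). Tumors 4 and 5 differed by less than 0.07 in Cox4i1 and Cox6a1 and by 0.17 in Cox8a, and tumor 1 lay between them and tumor 2. Cox5a read 11.29 in tumor 2, against 11.44, 11.58 and 11.50, and Cox7a2l, which helps join complexes III and IV into supercomplexes, read 9.93, against 10.15, 10.18 and 10.24. Cox7c was the exception, at 6.39 in tumor 2, against 5.97, 5.74 and 5.82, a difference of 0.55 (SE 0.24, limma, adjusted p = 0.795). With a mean of 5.98, its probe set is near the filter.

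Several complex IV and V subunits have forms for different tissues or conditions. Of 19 such forms listed, 13 were in the table and 10 were tested: the widely expressed Cox4i1, Cox6a1, Cox6b1, Cox7a2, Cox7a2l, Cox8a and Ndufa4 and the c-ring genes Atp5g1, Atp5g2 and Atp5g3. The other 3 in the table, Cox6b2, Cox7a1 and Cox7b2, were under the floor in all tumors. Cox4i2, Cox6a2, Cox7b, Cox8b, Cox8c and Ndufa4l2 were not analysed here. Cox6b1 read 10.92 in tumor 2, against 11.08, 11.33 and 11.20 in tumors 1, 4 and 5. Cox7a2 read 11.27 in tumor 2, against 11.47, 11.68 and 11.69, and Ndufa4 read 10.51, against 10.67, 10.97 and 11.01. All 10 were lowest in tumor 2.

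**Figure D2:**
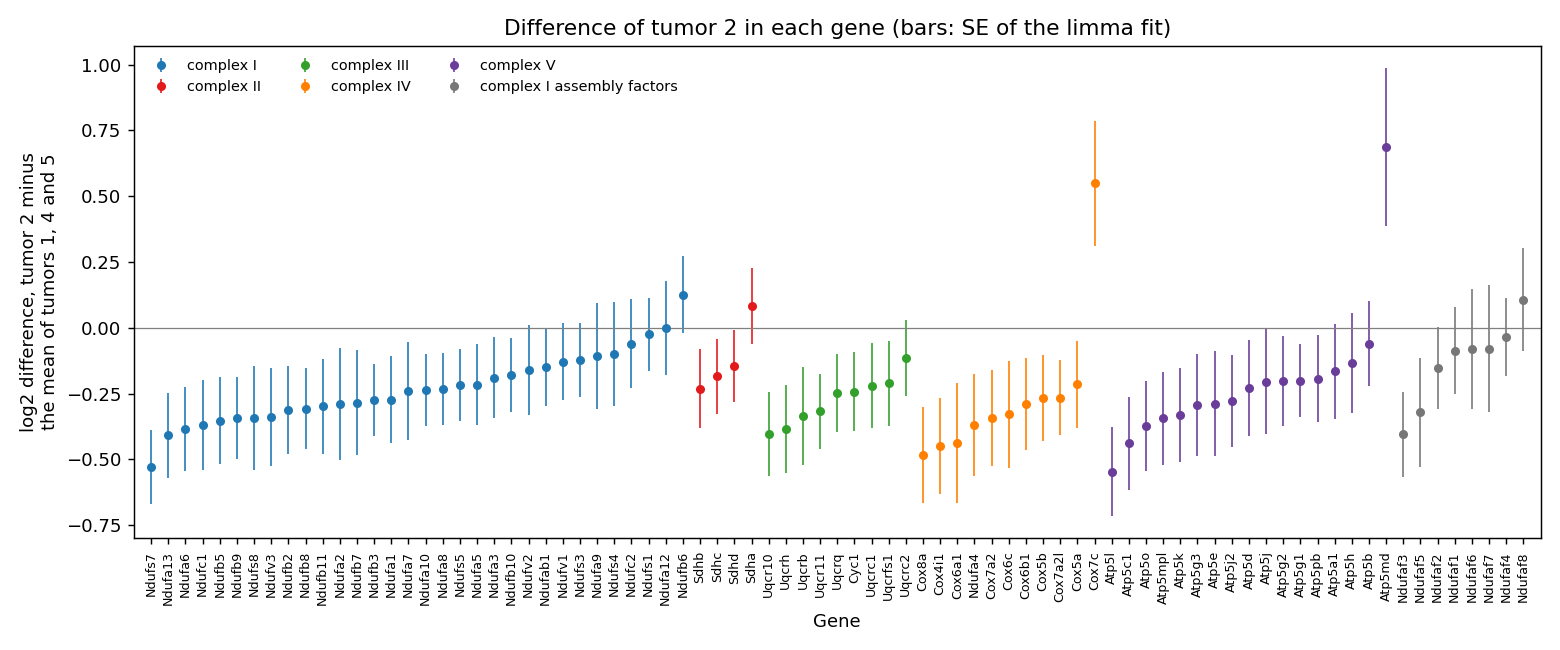
Log2 difference of tumor 2 from the mean of tumors 1, 4 and 5 for each of the 81 members, sorted within each complex. Points are estimates and bars are the SE of the limma fit. 76 points lie below 0, and Cox7c and Atp5md stand highest, at 0.55 and 0.69.

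In complex V, ATP synthase, 16 of 17 genes had a signal below the mean of the others in tumor 2, and the median difference was -0.23. In tumor 4, 16 genes were higher and the median was 0.20. The median was 0.18 in tumor 5 and -0.13 in tumor 1, where 3 of 17 were higher. The 5 genes of the catalytic F1 head and central stalk had a median of -0.23 in tumor 2, the 4 of the peripheral stalk -0.20, the 3 of the c ring -0.20 and the 5 accessory subunits of the membrane part -0.33.

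In the head, Atp5b, the catalytic beta subunit, was nearly the same in all tumors at 11.43, 11.41, 11.47 and 11.50 in tumors 1, 2, 4 and 5. Atp5c1, the rotating gamma subunit, read 10.92 in tumor 2, against 11.22, 11.42 and 11.44 in tumors 1, 4 and 5, or -0.44 (SE 0.18, limma, adjusted p = 0.795). Atp5e, the epsilon subunit, read 10.01 in tumor 2, against 10.06, 10.47 and 10.36. Subunits of the same head thus spanned differences of -0.06 to -0.44 in tumor 2, a spread between genes that was not tested. Atp5pb, the b subunit of the peripheral stalk, read 11.35 in tumor 2, against 11.50, 11.57 and 11.57. The 3 c-ring genes, which encode the same mature protein, differed by -0.20 in Atp5g1, -0.20 in Atp5g2 and -0.29 in Atp5g3 in tumor 2. Their levels in tumor 2 were 9.03, 10.09 and 10.86.

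Both ends of the spread in complex V were accessory subunits of the membrane part. Atp5l, subunit g, read 9.63 in tumor 2, against 10.01, 10.28 and 10.24 in tumors 1, 4 and 5, or -0.55 (SE 0.17, limma, adjusted p = 0.795). Atp5md, a small subunit linked to pairing of the synthase into dimers, read 9.89 in tumor 2, against 9.58, 9.24 and 8.79, or 0.69 (SE 0.30, limma, adjusted p = 0.795). In tumor 5 it was lowest, with a difference of -0.78 (SE 0.26, limma, adjusted p = 0.957), the 1 member with an unadjusted p under 0.05 there. Atp5md had tumor 2 at the top, where most members had it at the bottom. Atp5md was read by a single probe set.

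**Figure D3:**
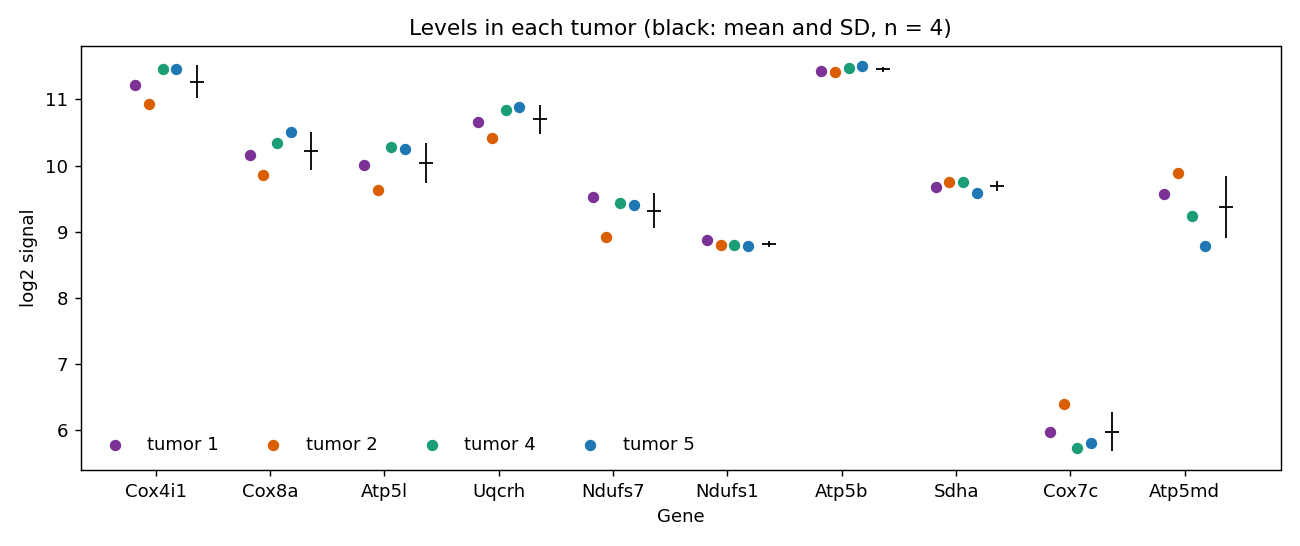
Log2 signal of 10 members in each tumor, with the mean and SD over the 4 tumors in black (n = 4). Cox4i1, Cox8a, Atp5l, Uqcrh and Ndufs7 have tumor 2 at the bottom, Ndufs1, Atp5b and Sdha are nearly flat, and Cox7c and Atp5md have tumor 2 at the top. Levels of different genes cannot be compared.

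The 8 assembly factors of complex I, which help build it and are not part of it, had 0 genes with a mean signal of 9 or above. Their median difference was -0.08 in tumor 2, -0.04 in tumor 4, 0.19 in tumor 5 and -0.01 in tumor 1. These values moved with single tumors and with the filter: the tumor 2 value was -0.18 without tumor 4 and -0.023 without tumor 5, the tumor 1 value was 0.088 without tumor 5, and the tumor 5 value was 0.097 with a stricter filter on mean signal. Ndufaf3 read 7.22 in tumor 2, against 7.58, 7.60 and 7.69 in tumors 1, 4 and 5, or -0.41 (SE 0.16, limma, adjusted p = 0.795). Ndufaf5 read 6.60 in tumor 2, against 6.93, 6.77 and 7.06, and Ndufaf2 read 7.88, against 8.03, 7.96 and 8.11. Tumor 2 was lowest in all 3. Ndufaf7, a methyltransferase acting on a complex I core subunit, was highest in tumor 5, with 7.34 in tumor 5, against 6.99, 6.98 and 6.86 in tumors 1, 2 and 4. Ndufaf8 differed by 0.11 in tumor 2. Ndufaf1 and Ndufaf4 were nearly flat, with ranges of 7.52 to 7.69 and 8.08 to 8.18.

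Where a gene had several probe sets, most gave the same direction. Of 40 members with 2 or more probe sets past the filter, 31 had every probe set lower in tumor 2 and 0 had every probe set higher. Over all 139 member probe sets past the filter, 127 were lower. Ndufs8 had 5 such probe sets, whose differences in tumor 2 ran from -0.52 to 0.12. Sdhd had a pair of probe sets at -0.15 and 0.45, Sdha a pair at -0.15 and 0.08, Ndufb6 a pair at -0.08 and 0.13 and Cox6c a pair at -0.33 and 0.09. Ndufs4 ran from -0.12 to 0.08, and Ndufa12, Ndufab1 and Atp5o also had probe sets of both signs. The direction of these genes thus depends on the probe set chosen.

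Leaving out tumor 1 changed the count of adjusted p-values. With tumor 2 set against tumors 4 and 5 only, 14 of 81 members (17.3%) had a limma adjusted p under 0.05, 13 of them lower in tumor 2, against 2.94% of 8480 genes tested. Of the 1848 genes at a signal of 9 or above in that fit, 8.98% had such a p, 140 of 166 of them lower. None of the 14 members reached 2-fold, so none was called. They were 6 of 11 genes of complex IV, 3 of 17 of complex V, 2 of 9 of complex III and 3 of 32 of complex I, with none in complex II or among the assembly factors. The smallest adjusted p was in Cox6a1, with 11.23 in tumor 2, against 11.77 and 11.83 in tumors 4 and 5, a difference of -0.57 (SE 0.08, limma, adjusted p = 0.0160). Atp5l differed by -0.63 and Cox4i1 by -0.53 (limma, adjusted p = 0.0198 for each), and Atp5md by 0.87 in the other direction (limma, adjusted p = 0.0331). The other 10, all lower, were Atp5c1, Ndufa4, Cox8a, Cox6c, Cox7a2, Uqcrh, Ndufa13, Uqcrb, Ndufs8 and Ndufc1. Some of these genes have another probe set that read otherwise. Another Cox6c probe set read 10.97 in tumor 2, against 10.94 and 10.82 in tumors 4 and 5. For Uqcrb such a probe set read 9.24, against 9.17 and 9.13, and for Ndufs8 10.26, against 10.28 and 9.99. The second probe sets of Cox6a1, Cox8a, Cox7a2, Uqcrh and Ndufc1 had tumor 2 below both. The fit without tumor 1 has a lone tumor against 2, and the rule of an adjusted p alone was chosen after seeing the data. By the same rule, no group of similar size appeared in the fits without tumor 2, 4 or 5, which also set 1 tumor against 2. Without tumor 2, however, tumor 1 stood apart from tumors 4 and 5 in part of the members by an unadjusted limma p. A distance from tumors 4 and 5 was thus not limited to tumor 2. The share of all genes with a low adjusted p also changed between those fits. The largest member difference, either way, was 0.62 without tumor 2, 0.94 without tumor 4 and 0.55 without tumor 5.

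Other bright features of the arrays also differed between tumors, though not all in the members' order. Among the 1834 genes at 9 or above, the median difference was -0.07 in tumor 2, with 63.8% lower, 0.10 in tumor 4, 0.08 in tumor 5 and -0.09 in tumor 1, which was the lowest. The Affymetrix control probe sets for the middle of Gapdh read 11.38, 11.33, 11.77 and 11.75 in tumors 1, 2, 4 and 5, and those for the middle of actin read 11.52, 11.47, 11.90 and 12.01. The control for the middle of 18S rRNA read 11.61, 11.29, 11.80 and 11.76 in tumors 1, 2, 4 and 5. In each of these controls tumor 2 was lowest, tumor 1 came next and tumors 4 and 5 were highest. The SD of all signals on an array was 2.41, 2.41, 2.50 and 2.53 in the same tumors. After quantile normalization, which gives the 4 arrays the same distribution, the median difference of genes at 9 or above was -0.002 in tumor 2, and the members kept a median of -0.18 with 70 of 81 lower. Under that scaling the members' median was 0.08 in tumor 4, 0.09 in tumor 5 and 0.03 in tumor 1, where the sign turned in complexes I, III and IV. The signal-dependent difference between arrays was 1 such value, and its part in the members' order beyond this normalization was not tested.

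**Figure D4:**
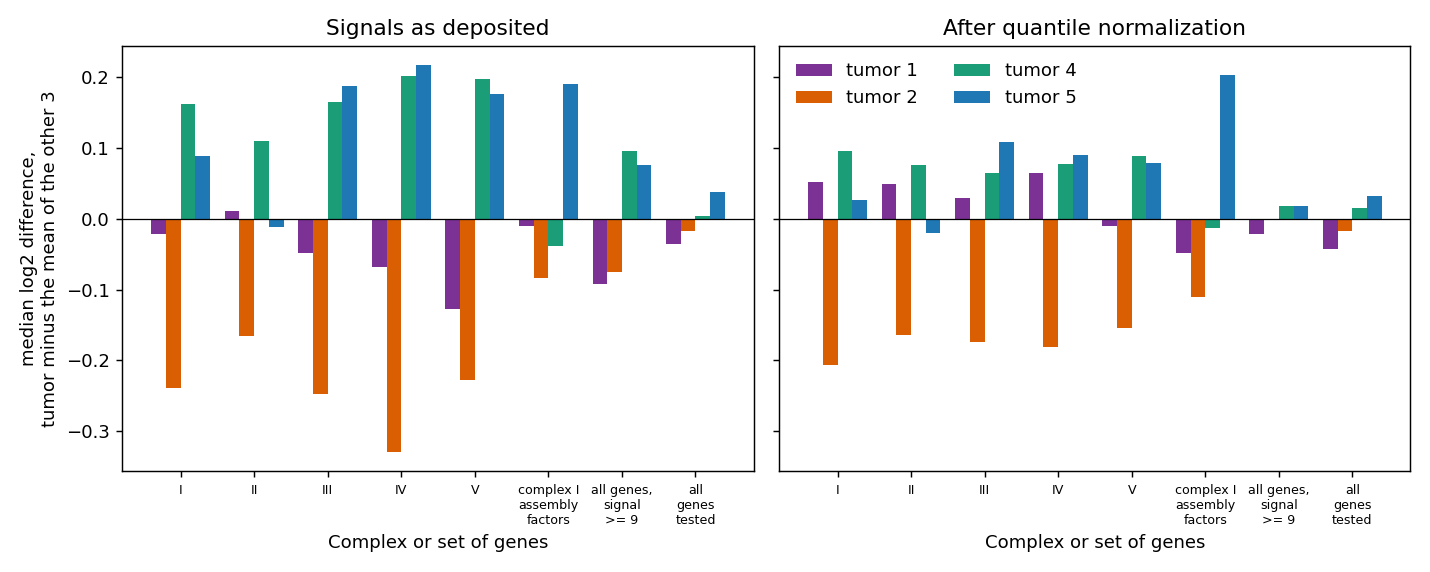
Median log2 difference of each tumor from the mean of the other 3, by complex, for all genes at a signal of 9 or above and for all genes tested, on the signals as deposited and after quantile normalization. Bars are medians over genes and have no error. Tumor 2 is the lowest bar of every complex on both sides, and its bar for the genes at 9 or above is -0.002 after normalization.

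**Figure D5:**
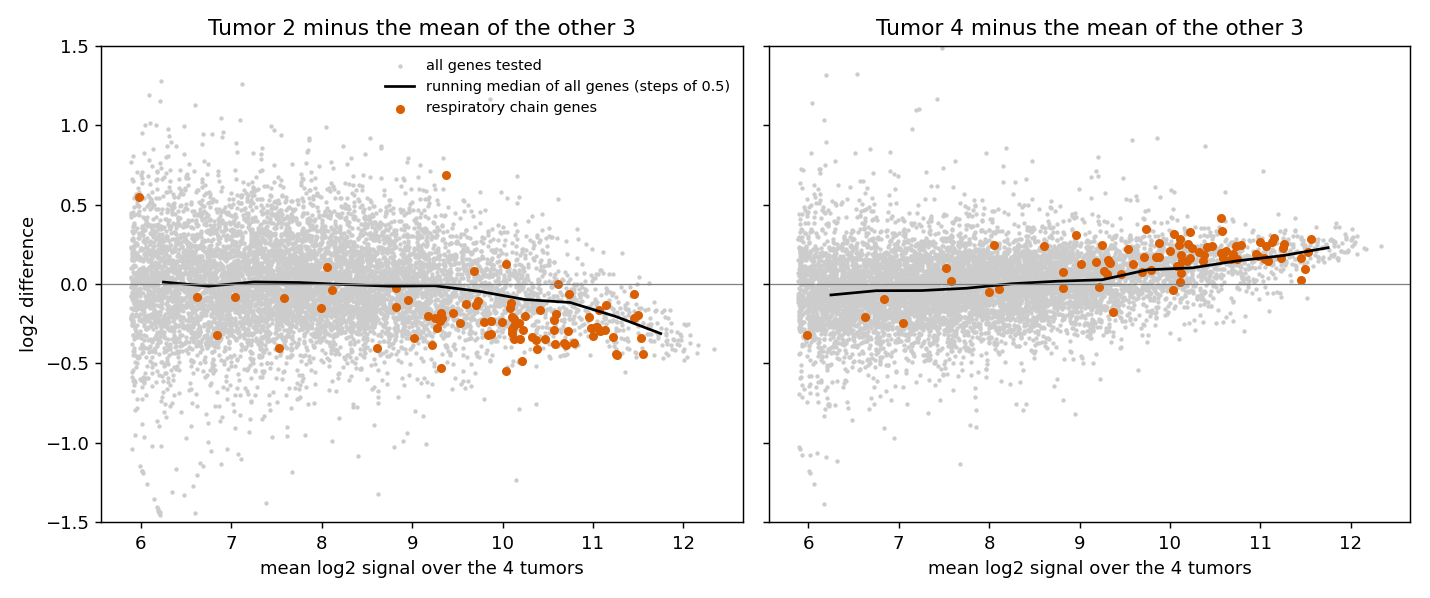
Log2 difference of tumor 2 and of tumor 4 from the mean of the other 3, plotted over the mean log2 signal. Grey points are all 8492 genes tested, those beyond 1.5 either way being outside the axis, the black line is their running median and orange points are the 81 members. The line bends down in tumor 2 and up in tumor 4 at high signal, and 76 of the 81 members lie below 0 in tumor 2.

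Related gene groups were read from the same limma fit, and no gene of them passed in any contrast. The mitochondrial ribosome translates the subunits encoded in mitochondrial DNA. Of its 76 genes, 68 had a lower signal in tumor 2 than the mean of the others, and the median difference was -0.16. Their medians were 0.14 in tumor 4, 0.15 in tumor 5 and -0.10 in tumor 1. Of 31 tested assembly factors outside the Ndufaf names, 24 had a lower signal in tumor 2, their median there was -0.16, and their median in tumor 4 was -0.04. Coa3, a factor for complex IV, differed by -0.46 in tumor 2, with 9.39 in tumor 2, against 9.81, 9.84 and 9.90 in tumors 1, 4 and 5. Genes of the tricarboxylic acid cycle, which feeds electrons to the chain, had a median of -0.08 in tumor 2, where 13 of 16 were lower. Of 9 electron carriers and related genes, 5 were lower, with a median of -0.07, and Cycs, cytochrome c, differed by -0.18. The 15 tested regulators of mitochondrial genes had a median of -0.02 in tumor 2 and -0.24 in tumor 1. Among them Nrf1 read 6.55 in tumor 2, against 6.40, 6.48 and 6.89, and Gabpa read 9.46, against 9.25, 9.70 and 9.70. Of 7 tested genes linked to hypoxia, 4 were below the mean of the others in tumor 2, and the median was -0.16.

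Markers of other cell types differed most in level between tumor 1 and the others in 3 lists of mature cells. Several of those markers reached the filter only through tumor 1, so they are given as summed levels over all listed genes in the table, with no count of passes. The summed linear signal of Purkinje cell and inhibitory neuron markers (8 of 9 listed) was 3895 in tumor 1, against 362, 563 and 327 in tumors 2, 4 and 5. That of mature granule and other neurons (13 of 13) was 9180 in tumor 1, against 3504, 4461 and 4303, and that of oligodendrocytes (8 of 9) was 5424 in tumor 1, against 812, 1630 and 763. Of 12 microglia and macrophage markers, 6 were lower in tumor 2 and 11 were higher in tumor 4, and the list summed to 5091 in tumor 2, against 4213, 7363 and 5484. Calb1, Pcp2, Gabra6, Cbln3 and Mobp were at or under the floor in tumor 2, and Slc32a1 was listed at a log2 signal of 0 in tumors 2 and 5. For dividing cells, 8 of 11 tested genes had a higher signal in tumor 2 than the mean of the others (median 0.16), and the list summed to 12272, against 8985, 12570 and 12359 in tumors 1, 4 and 5. Tumor 1 was lowest in 11 of those 11, with a median difference of -0.45, 5 genes at an unadjusted limma p under 0.05 and 0 passing the test. Of 8 granule cell progenitor markers, 7 were lower in tumor 1, with a median difference of -0.38, and 4 were lower in tumor 2. Of 9 astrocyte markers, 7 were higher in tumor 1 and 6 were lower in tumor 2, and 1 endothelial marker was tested, at 0.06. No marker of erythroid cells or muscle was tested. The part of these cells in the members' order was not tested.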

How the data were processed

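Total RNA of 4 tumors was hybridized to 1 array each. The deposited values are log2 signals, and per the submitters' processing notes they come from MAS5, the Affymetrix method that summarizes each probe set on its own array. The scaling target and the detection calls were not given in the sources used. MAS5 does not align the distributions of arrays, and low signals are noisy on the log scale. On the linear scale the deposited values fell on steps of 0.1. Probe sets were named from the platform annotation supplied with the series (24679 with a single symbol, 647 with several, 61 Affymetrix controls left out), and all 81 members tested matched a RefSeq symbol.

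The floor was the median over arrays of the 40th percentile, and the filter was the median of all probe set means after the floor. The probe set with the highest mean stood for a gene. limma 3.58.1 in R 4.3.3 (lmFit, eBayes with trend) set each tumor against the other 3, the lone tumor being assumed to vary like the rest, and p-values were adjusted over all 8492 genes. The fit was run on simulated data with independent noise and changes larger than those of the members. That run does not cover small differences shared by many genes. The number of arrays limits the precision. An exact permutation test of 1 tumor against 3 cannot go below 0.25. Complexes are described by counts and medians without a test.

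Members and lists were chosen with earlier results of these data known. Named in the text are, in each complex, the 4 genes with the highest SD over tumors, the 2 with the lowest and the 3 with the largest difference in tumor 2, the tissue forms and the genes under the filter; the 5 genes higher in tumor 2, the genes of the fit without tumor 1 and those of related lists were named after their values were seen.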

Additional observations from a re-analysis of the deposited data

Results flagged for a closer look

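A tumor whose gap to the nearest of the other 3, divided by the whole range, exceeded Dixon's 95% critical value was looked for in each of the 81 members. The value was passed by 3 members (3.70%), where chance flags about 1 in 20 groups. Ndufs1 had a ratio of 0.880, with tumor 1 highest at 8.88, against 8.80, 8.80 and 8.79 in tumors 2, 4 and 5, within an SD of 0.04. Ndufaf4 had a ratio of 0.963, with tumor 5 highest at 8.18, against 8.09, 8.08 and 8.09 in tumors 1, 2 and 4. Both are among the flattest genes of their group, so the whole range behind each ratio is small. The other gene was Ndufa10, with 9.61 in tumor 2, against 9.83, 9.86 and 9.86 in the others.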

How the results depend on the processing

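The 4 counts of members that passed stayed at 0 under every alternative run: other floors and filters, quantile normalization, centring on the median, averaging probe sets, leaving out _x_at and _s_at probe sets, no intensity trend, log2 of the linear signal plus 16, and each tumor left out in turn. No member reached 2-fold in the main fit or with a tumor left out, the largest log2 differences being 0.78 and 0.94. The fold limit alone thus kept the counts at 0 there, whatever the adjusted p. The median difference of all members in tumor 2 ran from -0.29 to -0.18 over the alternative runs. It was below 0 for each of the 6 groups in every run. With the mean of a gene's probe sets, complex II had a median of -0.019 in tumor 4 and a median SD of 0.14, Sdha turned to -0.035 and Sdhd to 0.15 in tumor 2. With the stricter filter the assembly factors had a median of 0.10 in tumor 5 and a median SD of 0.10. Quantile normalization brought the median SD of complex IV to 0.11 and turned Cox5a to 0.033, Atp5b to 0.21 and Atp5pb to 0.068 in tumor 2. Leaving out 1 tumor at a time, the assembly factors ran from -0.057 to 0.088 in tumor 1 and from -0.18 to -0.023 in tumor 2, with a median SD of 0.079 to 0.16, the lowest without tumor 5. The median SD of complex IV ran from 0.13, without tumor 2, to 0.26. In the same way, in tumor 2, Ndufs1 ran from -0.043 to 0.00325 and Ndufaf7 from -0.18 to 0.061. Ndufs8 was -0.46 without tumor 1, 0.18 without tumor 4 and 0.038 without tumor 5. Without tumor 4 or 5, a different Ndufs8 probe set had the highest mean and stood for the gene, so its sign turned with the probe set. That probe set also gave the 0.12 seen without _x_at and _s_at probe sets. The causes of the other changes were not tested. No paired analysis was possible because all 4 tumors belong to a single group. Signals near the floor limit what can be said of Cox7c and of the genes under the filter.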
